A study of Homo sapiens with 4 samples.

Results

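S100 proteins are small calcium-binding proteins with a pair of EF-hand loops, most of which work as dimers. Inside the cell most of them bind annexins, cytoskeletal proteins and enzymes when calcium enters, and some are also released and act on receptors of other cells. S100A8 and S100A9 form calprotectin, a major cytosolic protein of neutrophils and monocytes that chelates zinc and manganese, and S100A12 is a related protein of the same cells. The 10 genes described here (S100A4, S100A6, S100A8, S100A9, S100A10, S100A11, S100A12, S100A13, S100P and S100B) were taken by symbol from the 21865 gene symbols of the deposited tables. All 10 were found, none was listed more than once, and all 10 reached 1 RPKM in at least 1 line, as did 12976 symbols in all. Levels below are in RPKM, a read-based unit of abundance corrected for gene length and library size.

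RNA was sequenced from 4 cultured human acute myeloid leukemia lines with 1 library each, grown in standard medium with serum and with no treatment named in the labels. MonoMac-1 and THP-1 are monocytic lines with the MLL-AF9 (KMT2A-MLLT3) fusion, HL60 is a promyelocytic line and KG1a an immature line, all of which is general knowledge of these lines and not in the labels. The THP-1 title carries a suffix ("tr") that the labels do not explain. The fusion and the monocytic lineage coincide in these lines and cannot be told apart. No line had a second culture, so the 95% intervals given below are Poisson intervals that cover counting error only, with a fragment taken as 200 sequenced bases.

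The libraries held 6.04 (THP-1) to 13.6 gigabases (MonoMac-1) on genes. Of 8 monocyte markers, 8 reached 1 RPKM in MonoMac-1, 8 in THP-1, 4 in HL60 and 2 in KG1a. Of the 12976 genes that reached 1 RPKM in a line, 11240 did so in MonoMac-1, 11346 in THP-1, 10569 in HL60 and 10944 in KG1a. The early antigen CD34 stood at 494 RPKM in KG1a. The sum of 4 epithelial and stromal markers did not exceed 1.75 RPKM in any line. CD14, a defining monocyte antigen, was low, at 4.13 RPKM in MonoMac-1 and 1.28 in THP-1. In HL60, 24 genes that were abundant in KG1a and scarce in both MLL-AF9 lines lay at a median of 2.75% of their KG1a value. For each of the 9 members detected in KG1a, HL60 held at least 41.5% of the KG1a value.

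The promoters of 6 members are shown first, so that they can be read beside the levels. They are the 250 bases before the transcription start from RefSeq (GRCh38.p14), a build other than the hg19 of the expression files. Capitals mark the TATA sequence TATAAA and the core bound by the myeloid factor PU.1, GAGGAA, printed as TTCCTC where it lies on the opposite strand. The first 3 are the neighbours S100A9 (chr1:153357604-153357853, plus strand), S100A12 (chr1:153375622-153375871, minus strand) and S100A8 (chr1:153391074-153391323, minus strand, the 1 of 3 listed windows with TATAAA close to its start). The others are S100A4 (chr1:153545807-153546056, minus strand), S100P (chr4:6693628-6693877, plus strand) and S100A11 (chr1:152037005-152037254, minus strand), the member with the most even level.
S100A9: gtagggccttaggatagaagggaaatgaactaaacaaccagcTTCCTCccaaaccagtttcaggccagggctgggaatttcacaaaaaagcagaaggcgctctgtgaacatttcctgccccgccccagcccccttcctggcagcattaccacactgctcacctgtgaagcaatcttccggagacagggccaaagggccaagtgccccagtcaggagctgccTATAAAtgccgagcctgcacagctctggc
S100A12: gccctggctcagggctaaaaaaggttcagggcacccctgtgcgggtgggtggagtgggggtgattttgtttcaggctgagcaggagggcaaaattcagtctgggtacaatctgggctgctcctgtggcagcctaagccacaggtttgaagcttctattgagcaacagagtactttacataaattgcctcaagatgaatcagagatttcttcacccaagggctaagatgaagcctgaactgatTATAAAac
S100A8: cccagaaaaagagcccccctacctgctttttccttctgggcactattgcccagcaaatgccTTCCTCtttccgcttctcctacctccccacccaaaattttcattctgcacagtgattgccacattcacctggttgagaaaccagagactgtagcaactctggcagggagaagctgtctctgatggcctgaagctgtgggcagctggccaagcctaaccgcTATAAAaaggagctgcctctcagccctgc
S100A4: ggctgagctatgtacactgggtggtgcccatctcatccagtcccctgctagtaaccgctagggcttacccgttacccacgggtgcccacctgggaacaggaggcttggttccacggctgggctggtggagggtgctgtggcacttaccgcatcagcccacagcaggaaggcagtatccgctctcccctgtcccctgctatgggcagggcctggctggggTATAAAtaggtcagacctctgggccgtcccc
S100P: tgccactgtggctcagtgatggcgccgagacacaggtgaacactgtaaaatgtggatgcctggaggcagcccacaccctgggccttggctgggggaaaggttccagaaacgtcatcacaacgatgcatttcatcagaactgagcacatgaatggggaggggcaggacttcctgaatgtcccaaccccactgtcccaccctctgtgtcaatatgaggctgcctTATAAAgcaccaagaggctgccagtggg
S100A11: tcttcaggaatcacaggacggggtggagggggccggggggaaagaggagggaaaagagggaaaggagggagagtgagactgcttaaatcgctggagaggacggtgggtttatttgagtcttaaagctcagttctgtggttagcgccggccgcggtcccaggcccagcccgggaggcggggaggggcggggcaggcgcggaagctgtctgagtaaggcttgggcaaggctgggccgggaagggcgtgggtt

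In the shown windows of S100A9, S100A8, S100A4 and S100P, TATAAA began 29, 29, 31 and 28 bases before the start. It began 8 bases before the listed start of S100A12 and was absent from that of S100A11. TATAAA was found in 6.8% of all 35116 RefSeq windows of this length (searched in the direction of transcription), and in 2.39% of them between 20 and 45 bases before the start. Of the members not shown, S100A13 had TATAAA 29 bases before 1 of its 3 listed starts, and the windows of S100A6 and S100A10 did not hold it. The GC content was 71.2% for S100A10, 70.0% for S100A6, 63.6% for S100A11, 62.8% for S100A4, 60.0% to 63.2% for S100A13, 55.6% for S100A9 and S100P, 53.2% for the shown window of S100A8 and 49.2% for S100A12. The median of all windows was 58.0%. GAGGAA, searched on both strands, was found in the shown windows of S100A8 and S100A9, 189 and 208 bases before the start, and in 23.6% of all windows. The windows of S100A6, S100A10 and S100A13 did not hold it. The C/EBP sequence TTNNGNAA, searched on both strands, was present in all of the shown windows except that of S100A4, and in 33.2% of all windows. Of the members not shown, S100A6 and 1 of the 3 windows of S100A13 held it, and S100A10 did not. The shown windows were a choice, and whether the members hold these motifs more often than other genes was not tested.

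The calprotectin genes spanned the widest range of the 10 members on the log2(RPKM + 1) scale, 6.64 for S100A8 and 6.45 for S100A9. S100A8 (chromosome 1, 153362508 to 153363664, hg19, starts as listed) stood at 57.9 RPKM in MonoMac-1 (95% interval 55.6 to 60.2) and 111 in THP-1 (107 to 116), against 3.59 in HL60 (2.90 to 4.41) and 0.125 in KG1a (0.0341 to 0.321). Both MLL-AF9 lines were above both other lines, and the KG1a value rested on 4 fragment equivalents. S100A9 (chromosome 1, 153330330 to 153333503) stood at 92.5 RPKM in MonoMac-1 (89.7 to 95.3) and 314 in THP-1 (306 to 322), against 15.2 in HL60 (13.8 to 16.7) and 2.60 in KG1a (2.09 to 3.19). The lines fell in the same order for both genes, with THP-1 highest and KG1a lowest, and no intervals overlapped. Between the nearest lines of the pairs, MonoMac-1 over HL60, the ratio of levels was 16.1 for S100A8 and 6.08 for S100A9.

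Although their proteins form a heterodimer, their transcripts did not keep a fixed ratio. The level of S100A9 over that of S100A8, both per length, was 1.60 in MonoMac-1 (95% interval 1.52 to 1.68), 2.82 in THP-1 (2.68 to 2.97), 4.23 in HL60 (3.36 to 5.33) and 20.7 in KG1a (7.87 to 78.1). S100A9 was the more abundant in every line. The excess was greater where both were scarcer, apart from THP-1, which had more of both than MonoMac-1 and a higher ratio.

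S100A12, a ligand of the receptor AGER, lies between these genes (chromosome 1, 153346184 to 153348075). It stood at 3.73 RPKM in MonoMac-1 (3.13 to 4.41) and 3.93 in THP-1 (3.02 to 5.02), against 0.129 in HL60 (0.0262 to 0.379), and was listed at 0 in KG1a. The intervals of the MLL-AF9 lines overlapped, as did those of the other lines. The HL60 value came from 2.96 fragment equivalents, so its ratio is loose, at 28.9 for MonoMac-1 over HL60 (9.59 to 140). A floor of 3 fragments in the KG1a library corresponds to 0.105 RPKM, and against that floor S100A12 was at least 35.3-fold higher in MonoMac-1 and at least 37.2-fold higher in THP-1 than in KG1a. The two-sided 95% interval of the KG1a count reaches somewhat further, to 0.130 RPKM, and would lower both ratios.

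S100A4, which binds non-muscle myosin and is known for its role in cell motility, was the most abundant member in both MLL-AF9 lines. It stood at 465 RPKM in MonoMac-1 (459 to 471) and 666 in THP-1 (655 to 678), against 98.8 in HL60 (95.2 to 103) and 16.4 in KG1a (15.0 to 17.8). Among all symbols it ranked 94 in MonoMac-1 and 73 in THP-1, against 639 in HL60 and 4378 in KG1a. THP-1 was highest and KG1a lowest, with no overlap of intervals, and the nearest lines, MonoMac-1 and HL60, differed 4.70-fold.

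S100A6 (calcyclin), a partner of the calcyclin-binding protein CACYBP, lies next to S100A5 and S100A4. Its level was 250.1 RPKM in MonoMac-1 (246 to 254) and 275 in THP-1 (268 to 281), against 38.3 in HL60 (36.2 to 40.4) and 67.3 in KG1a (64.8 to 69.8). Here KG1a exceeded HL60, the reverse of S100A4, S100A8 and S100A9, and MonoMac-1 was 3.72-fold above KG1a. S100A13, known for the release of proteins that lack a signal peptide, was much scarcer. It stood at 6.51 RPKM in MonoMac-1 (6.03 to 7.02) and 7.20 in THP-1 (6.44 to 8.02), against 1.46 in HL60 (1.18 to 1.78) and 3.51 in KG1a (3.11 to 3.95). Its span overlaps that of S100A1 (4.54 RPKM in MonoMac-1, 1.68 in THP-1, 1.74 in HL60 and 1.003 in KG1a), and reads of this overlap may be shared, so the levels of both are uncertain.

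**Figure D1:**
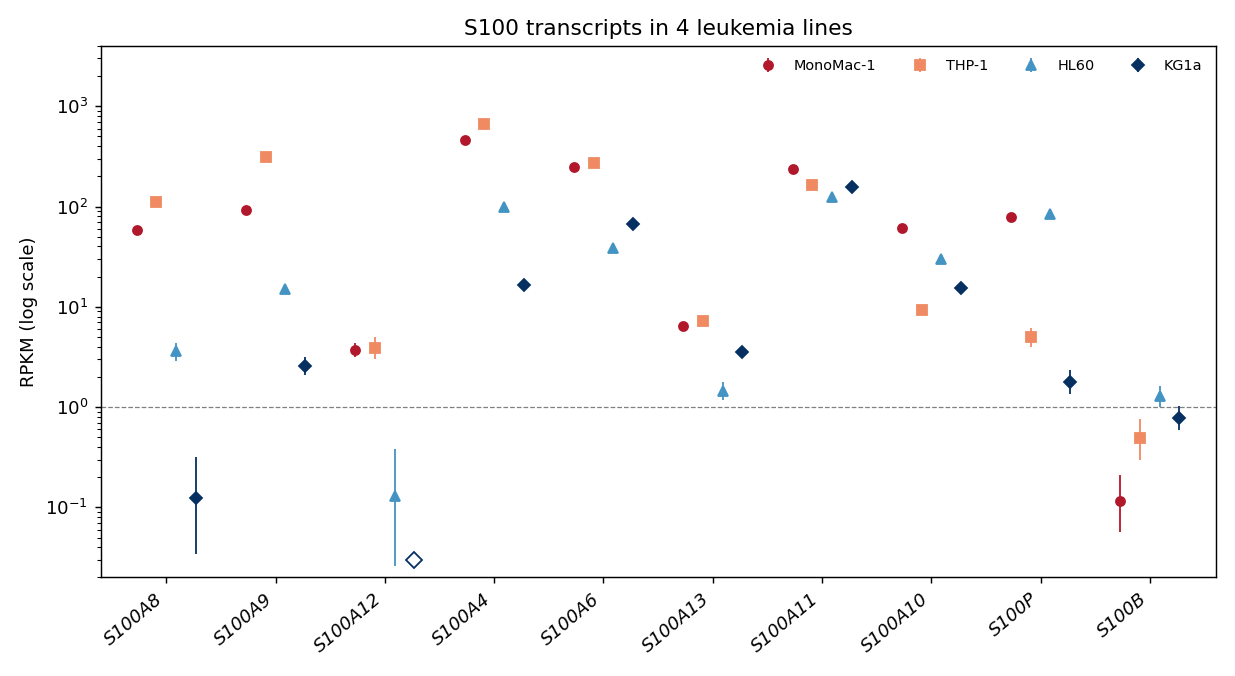
Level of the 10 S100 transcripts in each line (RPKM, log scale; 1 library per line), with bars for the 95% Poisson interval of counting error and a dashed line at 1 RPKM. The open diamond marks S100A12 in KG1a, listed at 0 and drawn at the foot of the axis; S100A11 stays between 124 and 238 RPKM while S100A8 runs between 0.125 and 111.

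S100A11 was the most even member. Its level was 238 RPKM in MonoMac-1 (233 to 242) and 163 in THP-1 (157 to 168), against 124 in HL60 (120.2 to 128) and 155 in KG1a (151 to 160). The intervals of THP-1 and KG1a overlapped, and the highest line exceeded the lowest 1.91-fold. RefSeq lists 10 pseudogenes of this gene, whose reads may be split from or added to it.

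S100A10 (p11), the subunit that joins annexin A2 in a heterotetramer at the membrane, did not separate the pairs. It stood at 60.8 RPKM in MonoMac-1 (59.1 to 62.5) but at 9.20 in THP-1 (8.24 to 10.2), and at 29.7 in HL60 (28.2 to 31.2) and 15.6 in KG1a (14.6 to 16.5). The highest and the lowest line were thus both MLL-AF9 lines. MonoMac-1 exceeded THP-1 6.61-fold (5.93 to 7.41).

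S100P, which binds ezrin and is known from placenta and from myeloid cells, was high in MonoMac-1 and HL60 and low in THP-1 and KG1a. It reached 78.7 RPKM in MonoMac-1 (76.0 to 81.5) and 4.97 in THP-1 (3.99 to 6.12), against 84.6 in HL60 (81.1 to 88.3) and 1.79 in KG1a (1.35 to 2.32). The intervals of HL60 and MonoMac-1 overlapped, whereas MonoMac-1 exceeded THP-1 15.8-fold (12.8 to 19.8) and HL60 exceeded KG1a 47.4-fold (36.1 to 62.5). The gene lies apart from the rest of the family, on chromosome 4 (6695566 to 6698897).

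S100B, best known from astrocytes and melanocytes, was low in every line, on 71.6 fragment equivalents in HL60 and 10.4 in MonoMac-1. Its level was 0.117 RPKM in MonoMac-1 (0.0570 to 0.212) and 0.493 in THP-1 (0.299 to 0.766), against 1.28 in HL60 (1.001 to 1.61) and 0.785 in KG1a (0.590 to 1.02). It was the only member of the 10 whose MonoMac-1 and THP-1 levels both lay below those of HL60 and KG1a, and the intervals of THP-1 and KG1a overlapped. It lies on chromosome 21 (48018531 to 48025035). Over all 10 members, 7 of 30 neighbouring pairs of lines in the order of levels had overlapping intervals. The share over all genes was not computed, so this count cannot be read as a trait of the members.

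Summed over the 10 members, the level was 1253 RPKM in MonoMac-1 and 1555 in THP-1, against 397 in HL60 and 263 in KG1a. This sum also differed in make-up. S100A4 made up 37.1% of it in MonoMac-1 and 42.9% in THP-1, against 24.9% in HL60 and 6.21% in KG1a. S100A11 made up 19.0% of the sum in MonoMac-1 and 10.5% in THP-1, against 31.3% in HL60 and 59.0% in KG1a. It was the leading member in HL60 and KG1a. At a level of at least 10 RPKM were 7 of the 10 members in MonoMac-1 (47.2% of all genes) and 5 in THP-1 (45.1%), against 6 in HL60 (44.1%) and 4 in KG1a (46.9%). In 6 of the 10 members the highest line was at least 10 times the lowest, counting S100A12 with its 0 in KG1a, as in 23.8% of all genes.

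MonoMac-1 and THP-1 were next compared with HL60 and KG1a over all genes. In both MLL-AF9 lines 4 of the 10 members, S100A4, S100A8, S100A9 and S100A12, were at least 4 times the higher of the other lines, a rule met by 4.35% of the 12976 genes. The opposite rule was met by 0 members and by 2.21% of all genes. Of the members nearest to the limit, S100A4 met it at 4.70-fold and S100A6 missed it at 3.72-fold. By any margin 7 members had both MLL-AF9 lines above both others, as did 22.1% of all genes, and 1 had both below (19.6%), and S100A10 and S100P were neither. The rule takes ratios of RPKM, so genes near 0 can meet it easily. On RPKM + 1 the same 4 members met it with 1.39% of all genes, against 0 members and 0.331% of genes in the opposite direction.

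With limma, fitted to log2(RPKM + 1) of all 12976 genes with the line as the unit and adjusted by Benjamini-Hochberg, no member passed 0.05, nor did any gene (0 of 12976, or 0% called). The difference was 5.16 ± 0.79 for S100A8 (log2, SE; limma adjusted p = 0.233) and 4.49 ± 0.94 for S100A9 (limma adjusted p = 0.319), each higher in 2 of 2 MLL-AF9 lines. S100A4 followed with 3.74 ± 0.88 (limma adjusted p = 0.386), S100A6 with 2.35 ± 0.42 (0.263) and S100A12 with 2.18 ± 0.47 (0.335). These 5 had an unadjusted p under 0.05, as did 8.55% of all genes. S100A13 stood at 1.24 ± 0.51, S100A11 at 0.50 ± 0.40, S100P at 0.50 ± 1.99, S100A10 at 0.16 ± 0.93 and S100B at -0.64 ± 0.51. The p-values rest on 2 residual degrees of freedom and on 2.99 prior degrees of freedom, which limma takes from the variance of all genes. They measure a spread between different lines, in part that of other genes. The median difference was 1.71 over the members and 0.02 over all genes tested.

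**Figure D2:**
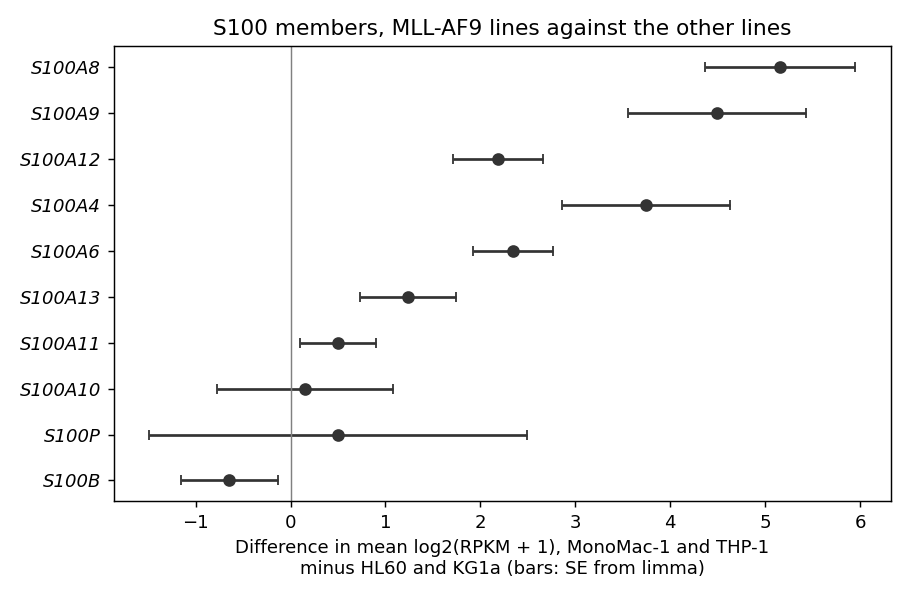
Difference in mean log2(RPKM + 1) between MonoMac-1 and THP-1 and HL60 and KG1a for each member (points; bars are the SE from limma over 4 lines). S100A8 has the highest value, 5.16, and S100P, at 0.50 ± 1.99, the widest bar.

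Of the 8 monocyte markers, 5 met the 4-fold rule (LYZ, CD14, CD68, MPEG1 and IRF8; 4.35% of all genes did). CSF1R at 3.88-fold and FCGR1A at 2.33-fold did not, and ITGAM was lower in MonoMac-1 (1.75 RPKM) than in KG1a (2.998). The summed level of the 8 markers was 5273 RPKM in MonoMac-1 and 971 in THP-1, against sums of 26.8 in HL60 and 5.12 in KG1a. LYZ alone gave 4837 RPKM of the MonoMac-1 sum. The 6 granulocyte markers summed to 6929 RPKM in MonoMac-1 and 6498 in THP-1, against sums of 5774 in HL60, of which MPO gave 4610, and 24.0 in KG1a. Of these 6, 3 met the 4-fold rule (ELANE, AZU1 and CTSG), and PRTN3 missed it at 2.53-fold. MPO and CEBPE were highest in HL60. MPO stood at 95.2 RPKM in MonoMac-1 and 4.78 in THP-1, and CEBPE at 16.1 and 4.99, against 178 in HL60. The median log2 difference was 5.61 over the granulocyte markers and 3.13 over the monocyte markers. The granulocyte list was split, since the limma difference was -2.54 for MPO and -0.43 for CEBPE. The part of either in the S100 levels was not tested. Fewer cells of a type and less RNA per cell cannot be told apart in such bulk libraries.

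Within the MLL-AF9 pair, MonoMac-1 was at least 4-fold above THP-1 for S100A10 and S100P (2 of 10 members, 5.9% of all genes) and at least 4-fold below it for S100B (1 of 10, 6.7% of all genes). S100B rested on 10.4 fragment equivalents in MonoMac-1 and 19.5 in THP-1. For S100A6, S100A12 and S100A13 the ratio of MonoMac-1 over THP-1 was 0.910, 0.949 and 0.905. For S100A8 it was 0.520 (0.490 to 0.552) and for S100A9 it was 0.295 (0.283 to 0.306), which are differences of 1 library each and have no test.

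By listed RPKM, HL60 was at least 4-fold above KG1a for 5 of 10 members (10.1% of all genes) and 4-fold below it for 0 (12.9%). For S100A12 this rests on 2.96 fragment equivalents in HL60 and 0 in KG1a, with overlapping intervals, and does not show a 4-fold difference. The other 4 were S100A4 (6.04-fold, 5.52 to 6.63), S100A8 (28.7-fold, 10.9 to 108), S100A9 (5.85-fold, 4.64 to 7.37) and S100P. S100A6, S100A11 and S100A13 were below KG1a, at 0.568, 0.799 and 0.415 of its level. No member was at least 8 times the highest of the other lines in any line. That rule was met by 1.13% of genes for MonoMac-1, 1.76% for THP-1, 0.516% for HL60 and 3.32% for KG1a.

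Position was shared by 8 of the 10 members, which lie within 1.65 megabases of chromosome 1 (151955386 to 153606524). This stretch holds 63 symbols, among them keratinocyte genes of the epidermal differentiation complex, and 10 of the 63 reached 1 RPKM in a line (15.9%, against 59.3% of all symbols). Those 10 were the 8 members, S100A1 and TCHH, which encodes trichohyalin and reached 2.90 RPKM in THP-1. S100A10 and S100A11 are separated from S100A9 by 1321 kilobases, and 1 of the 46 symbols between them reached 1 RPKM. S100A9, S100A12 and S100A8 lie within 33.3 kilobases, and all 3 met the 4-fold rule. Of the neighbours S100A6, S100A4 and S100A13, only S100A4 did.

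**Figure D3:**
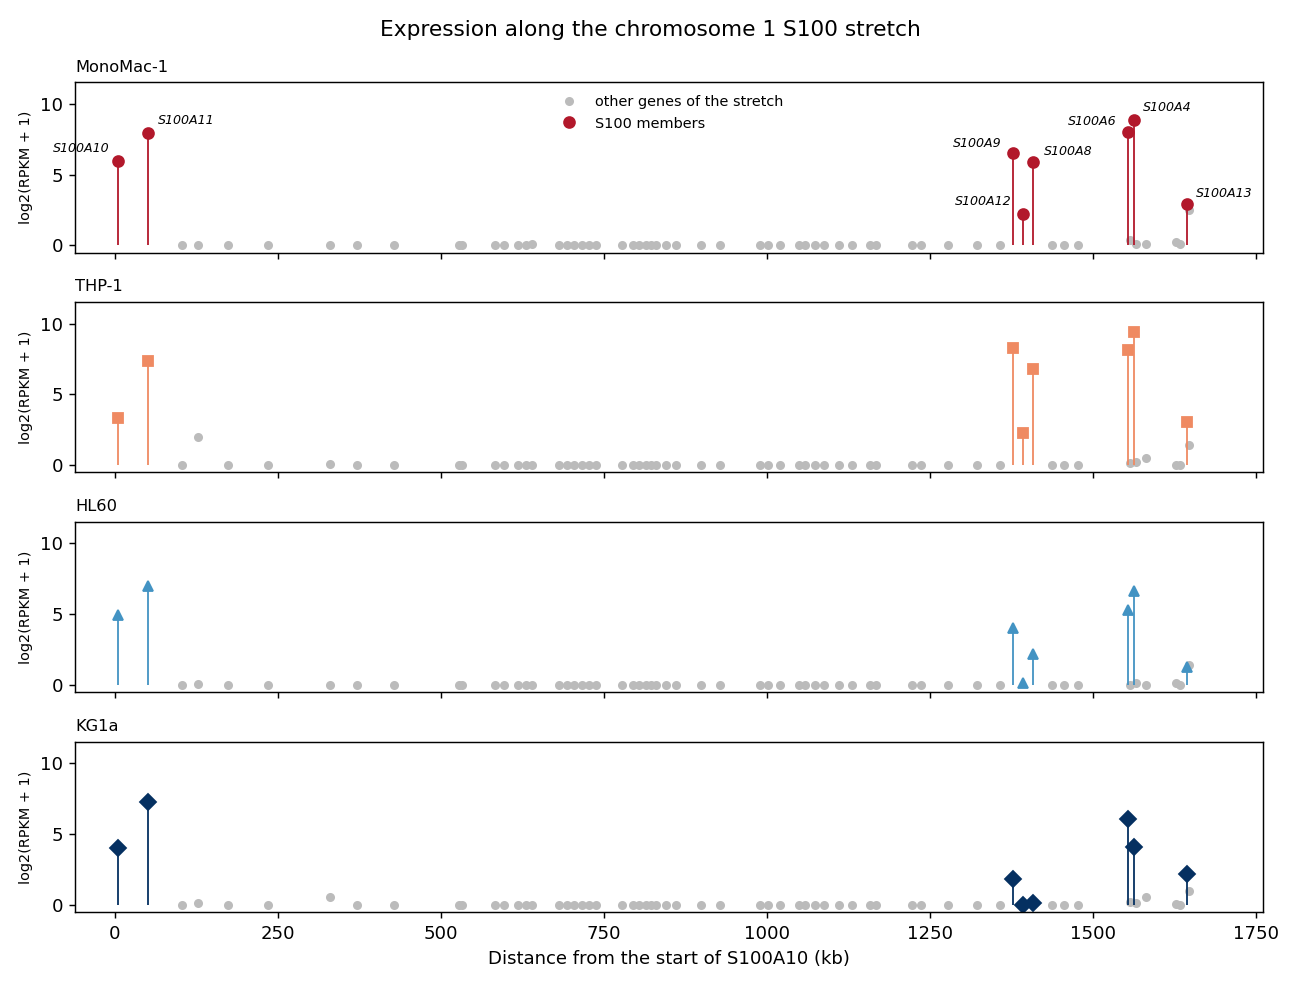
Level (log2(RPKM + 1)) of the 63 symbols along the chromosome 1 stretch in each line, by distance from the start of S100A10 in kilobases; coloured symbols are the S100 members and grey points the other genes. S100A11 stands high at the left in every line, whereas S100A9, S100A12 and S100A8, a cluster to the right of the middle, each stand higher in MonoMac-1 and THP-1 than in HL60 and KG1a, S100A12 as the lowest of the 3.

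Of the 11 other S100 symbols, 2 reached 1 RPKM in a line, S100A1 and S100Z. S100Z stood at 0.0274 RPKM in MonoMac-1 and was listed at 0 in THP-1, against 1.63 RPKM in HL60 and 18.6 RPKM in KG1a, which met the 4-fold rule on the lower side (limma difference -2.83 ± 1.03, adjusted p = 0.562). HL60 held 8.76% of the KG1a level. KG1a, the line highest in S100Z, was the lowest in S100A4, S100A8, S100A9, S100A12 and S100P. S100A7, S100A7A, S100A7L2 and S100G were listed at 0 in all 4 libraries, and the remaining 5 reached at most 0.488 RPKM (S100A2 in KG1a).

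Annexins and membrane proteins that S100 dimers bind were examined next. Of 7 that reached 1 RPKM, 1 met the 4-fold rule on the higher side (ANXA2; 4.35% of all genes), 1 on the lower (DYSF, a membrane repair protein; 2.21%) and 5 neither. Among these 5, AHNAK missed the higher side at 3.05-fold. AHNAK stood at 65.9 RPKM in MonoMac-1 and 66.4 in THP-1, against 21.6 in HL60 and 0.162 in KG1a. ANXA2, the partner of S100A10, stood at 199 RPKM in MonoMac-1 and 39.3 in THP-1, against 5.07 in HL60 and 1.17 in KG1a (limma difference 4.63 ± 0.93, adjusted p = 0.304). The level of ANXA2 over that of S100A10 was 3.27 in MonoMac-1 (3.17 to 3.37) and 4.27 in THP-1 (3.82 to 4.81), against 0.171 in HL60 (0.153 to 0.190) and 0.0753 in KG1a (0.0624 to 0.0908). In the MLL-AF9 lines the annexin transcript was thus in excess and in the other lines that of S100A10. DYSF stood at 0.815 RPKM in MonoMac-1 and 0.0347 in THP-1, against 6.69 RPKM in HL60 and 33.7 RPKM in KG1a.

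The other annexins varied less, with ANXA5 at 145 RPKM in MonoMac-1 and 139.9 in THP-1, against 118 in HL60 and 39.5 in KG1a. ANXA6 stood at 159 and 88.4 RPKM in MonoMac-1 and THP-1, against 98.2 and 61.9 in HL60 and KG1a. ANXA1, a partner of S100A11, was highest in KG1a (67.8 RPKM in MonoMac-1, 64.5 in THP-1, 38.6 in HL60 and 165 in KG1a). ANXA11 was highest in MonoMac-1 (78.4 RPKM) and lowest in THP-1 (45.5 RPKM). All 11 cytoskeletal and signalling partners reached 1 RPKM, and 0 of them met the 4-fold rule in either direction (4.35% of all genes higher, 2.21% lower). The most abundant were MYH9, the myosin heavy chain bound by S100A4 (130.1 RPKM in MonoMac-1 and 197 in THP-1, against 188 RPKM in HL60 and 135 RPKM in KG1a), and CAPZA1, EZR and TPM3, which averaged under MYH9. CACYBP stood at 39.3 and 45.4 RPKM in MonoMac-1 and THP-1, against 37.5 and 23.4 in HL60 and KG1a.

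Of 10 receptors of extracellular S100 proteins, 2 met the 4-fold rule on the higher side, CD36 and CD14 (4.35% of all genes). On the lower side 0 met it (2.21% of all genes), and 8 met neither. CD36, a scavenger receptor, stood at 11.9 RPKM in MonoMac-1 and 4.40 in THP-1, against 0.0586 in HL60 and 0.0302 in KG1a. TLR4, a receptor of calprotectin, was at 7.42 RPKM in MonoMac-1 and 5.77 in THP-1, against 6.13 in HL60 and 0.00852 in KG1a. Its co-receptor LY96 (MD-2) had another order, at 5.23 and 0.114 RPKM in MonoMac-1 and THP-1, against 0.318 in HL60 and 12.9 in KG1a. AGER (RAGE) stayed between 1.77 RPKM in HL60 and 4.14 in KG1a. The most abundant receptor was BSG (basigin), at 203 RPKM in MonoMac-1 and 300.1 in THP-1, against 152 in HL60 and 137 in KG1a. CD33, NPTN and ALCAM followed, with CD33 at 38.8 RPKM in MonoMac-1 and 38.3 in THP-1, against 59.5 in HL60 and 4.73 in KG1a.

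Among 10 transcription factors tied to myeloid S100 genes, 2 met the 4-fold rule on the higher side, CEBPD and KLF4 (4.35% of all genes). On the lower side 0 met it (2.21% of all genes), and 8 met neither. CEBPD stood at 45.5 RPKM in MonoMac-1 and 35.2 in THP-1, against 3.69 in HL60 and 0.127 in KG1a (limma difference 4.16 ± 0.76, adjusted p = 0.263). KLF4, a monocyte factor, stood at 8.16 and 3.79 RPKM in MonoMac-1 and THP-1, against 0.923 in HL60, and was listed at 0 in KG1a. SPI1, which encodes PU.1, was low only in KG1a among the 4 lines, with 168 RPKM in MonoMac-1 and 98.9 in THP-1, against 117 in HL60 and 1.41 in KG1a. CEBPA stood at 159 and 185 RPKM in MonoMac-1 and THP-1, against 105 and 13.7 in HL60 and KG1a. MYB and GFI1, also among the 4 most abundant, were lowest in KG1a too, at 38.2 and 9.44 RPKM. CEBPE, a granulocyte factor, peaked in HL60 at 178 RPKM.

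**Figure D4:**
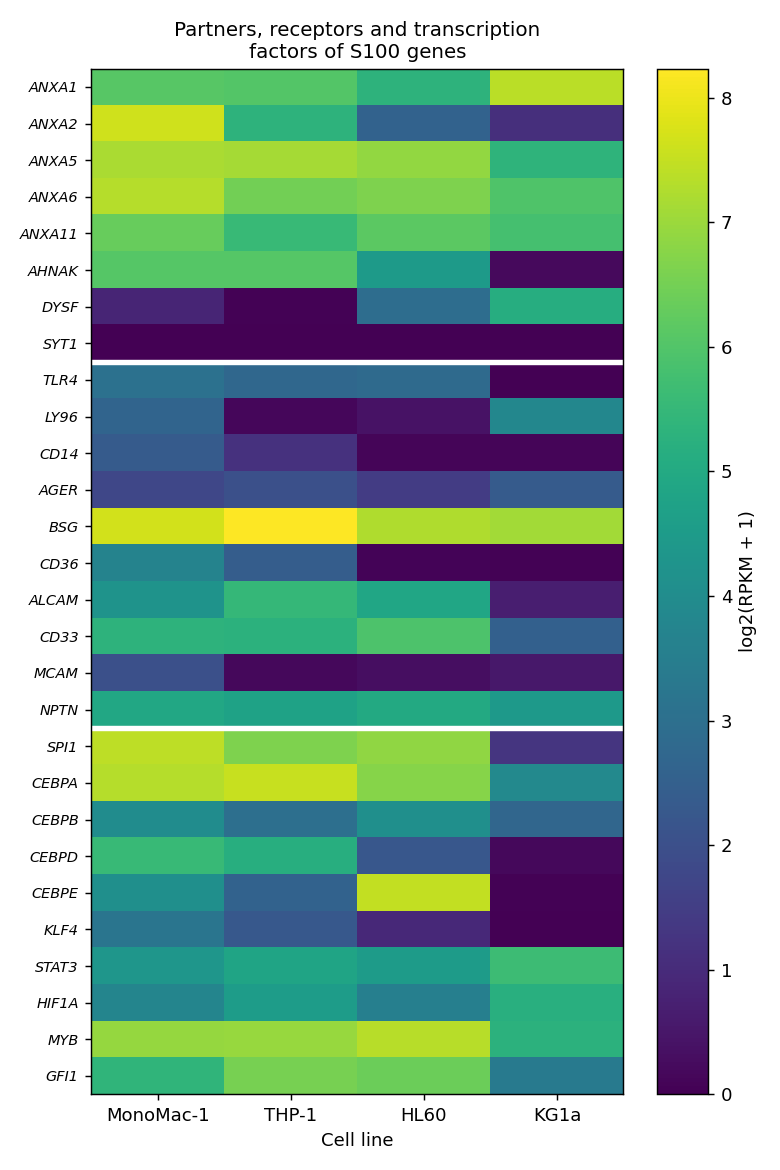
Level (log2(RPKM + 1)) of annexin and membrane partners (top block), receptors of extracellular S100 proteins (middle) and transcription factors (bottom) in MonoMac-1, THP-1, HL60 and KG1a. ANXA2, CD36, CD14, CEBPD and KLF4 are brighter in both left columns, and DYSF in both right columns.

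The genes whose pattern over the 4 lines was most like that of a member were found by the Euclidean distance between log2(RPKM + 1) values centred on their mean, for the 4 members that spanned at least 4 on this scale. For S100A8 they were CXorf21 (distance 0.46), CST3 (cystatin C, 0.60) and SERPINB2 (0.71). CST3 stood at 190.2 RPKM in MonoMac-1 and 322 in THP-1, against 12.5 in HL60 and 1.13 in KG1a. For S100A9 they were BST1 (0.56), the receptor kinase gene RET (0.70) and SAMHD1 (0.73), and for S100A4 ECRP (0.38), CD70 (0.58) and ADCY9 (0.63). For S100P they were EPB41L3 (0.54), MGLL (0.997) and PITPNC1 (1.04). EPB41L3 stood at 43.0 RPKM in MonoMac-1 and 1.74 in THP-1, against 48.8 in HL60 and 0.00553 in KG1a. Distances over 4 libraries are a description and carry no test. The pseudocount of 1 also compresses values near 0, so a small distance can hide unlike ratios between lines. In KG1a, S100A4 stood at 16.4 RPKM, against 0.0179 for CD70 and 0.0318 for ADCY9, and ECRP was listed at 0. Among the members themselves S100A6 and S100A12 were closest (0.71), followed by S100A8 and S100A9 (0.89). The first distance depends on the pseudocount of 1, which compresses the scarce S100A12: at 0.01 the limma difference was 6.68 for S100A12 and 2.37 for S100A6.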

How the data were processed

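For each line the authors deposited a headerless table, which gives for 21893 entries a gene symbol, its position, an RPKM value and a whole-number coverage signal. CASAVA 1.8.2 and hg19 are named in the submitters' processing notes. The aligner, annotation, strand handling and filters were not given in the sources used here. From its values, the deposited coverage signal was read as sequenced bases on the gene, since the commonest low value was 200 in every library; 200 bases were counted as 1 fragment. In MonoMac-1 only 10.0% of values up to 2000 were multiples of 100, against 41.7% to 47.0% in the others, so the fragment length, and with it the intervals, are less certain there. Reads are not independent molecules, and intervals cover counting error only.

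RPKM values were used as deposited, and as log2(RPKM + 1), a pseudocount that understates the change of low genes. For the 28 repeated symbols the entry with the highest mean was kept. Genes were tested if they reached 1 RPKM in a line. limma 3.58.1 (R 4.3.3, with lmFit, eBayes with trend, two-sided, Benjamini-Hochberg, threshold 0.05) compared MonoMac-1 and THP-1 with HL60 and KG1a. A run on simulated data checked the code only and says nothing of error or power in these lines. Python 3.11.15, pandas 2.3.3 and scipy 1.17.1 did the rest. Named were all members, other S100 genes at 1 RPKM, list genes that met the 4-fold rule or were among the 4 most abundant of their list, and the 3 nearest patterns; further list genes were chosen after their values were seen. Members and lists were chosen with earlier results of these data known. Alternatives were other pseudocounts (0.1 and 0.01), scalings, filters and folds, the sum of a symbol's entries, removal of the KG1a share from HL60, and omission of each line.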

Additional observations from a re-analysis of the deposited data

How the results depend on the processing

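The 4 members that met the 4-fold rule (higher in the MLL-AF9 lines) were the same under median-of-ratios scaling, quantile normalization, removal of the KG1a share from HL60 and, as an alternative chosen after the data were seen, on RPKM + 1; the pseudocount does not enter this count. A filter at 5 RPKM left 3 (without S100A12), a fold of 2 gave 5 and a fold of 8 gave 2 (S100A8 and S100A12). Leaving out each line gave 4 to 6 members, the highest without KG1a, where S100A6 and S100A13 joined. On the lower side the count was 0 to 1 when a line was left out, the 1 being S100B without THP-1, and 0 under the other alternatives. limma called 0 genes under every alternative (0 to 0 when a line was left out) except the filter at 5 RPKM, which tested 9990 genes and called 11 (10 higher and 1 lower), none an S100 member. Of 117 recomputed member differences 113 kept their direction. Filters and the sum of a symbol's entries cannot change a member's difference, so part of this count was fixed in advance. With all 4 lines kept, none of the differences passed the threshold, which with 2 residual degrees of freedom says nothing about stability. The 4 that reversed were S100A10 (-1.14 without MonoMac-1, -0.29 without KG1a) and S100P (-1.37 and -1.97); leaving out each line gave -1.14 to 1.46 for S100A10 and -1.97 to 2.97 for S100P. Over all alternatives the limma difference of S100A8 ran from 4.15 to 6.84 (adjusted p 0.157 to 0.847) and that of S100A9 from 3.40 to 5.58 (adjusted p 0.199 to 0.910). S100A12 ran from 2.08 to 6.68, with 4.70 at a pseudocount of 0.1 and 6.68 at 0.01, and S100A4 from 2.48 without KG1a to 5.01 without HL60. S100A12 and S100B could not be tested at 5 RPKM, nor S100B without HL60. No paired analysis was possible because each line had 1 library and the labels give no replicate numbers. Depth limits S100A12 and S100B, and S100A8 in KG1a.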

Other observations

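S100PBP, which encodes a binding partner of S100P and is no member of the family, stood at 12.7 RPKM in MonoMac-1 and 6.58 in THP-1, against 10.4 in HL60 and 12.01 in KG1a. It thus varied 1.93-fold over the lines while S100P varied 47.4-fold.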
